A study of Mus musculus with 6 samples.

Results

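The transcripts followed here were 10 genes that mark intraepithelial lymphocytes: Cd3e, Cd3d, Cd3g, Cd8a, Ptprc, Gzma, Gzmb, Itgae, Ccl5 and Coro1a. They were taken by symbol from the table of estimated read counts per gene, which has 23845 rows and holds all 10 of them. The table covers 6 mouse RNA-seq libraries of intestinal epithelial cells in 3 groups of 2. EYFP libraries came from mice of mixed C57BL6 and CD1 strain with 2 Neurog3 alleles (Neurog3+/+EYFP), whose cells were collected by flow sorting on the EYFP reporter. EGFP libraries came from C57BL6 mice with 1 Neurog3 allele (Neurog3+/-EGFP), collected likewise on EGFP. WT libraries came from wild-type C57BL6 intestinal epithelium titled Duod; whether these cells were sorted is not stated. No source used here gives ages, sorting gates or whether libraries came from separate animals. The p-values thus measure the spread between these libraries, which may be technical in the sorted groups. The 2 WT libraries differed in the sex-linked transcripts Xist and Ddx3y (values below) and so were not repeats of the same material.

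Intraepithelial lymphocytes are T cells that sit between the epithelial cells of the gut, most of them in the small intestine carrying CD8. A T cell recognises its target through the T cell receptor, whose signal is carried inward by the CD3 chains. Lymphocytes in the epithelium are held there by the integrin that Itgae encodes, which binds E-cadherin on epithelial cells, and many carry granzymes, proteases that kill target cells. Neurog3 itself is the transcription factor that commits gut progenitors to the enteroendocrine, hormone-secreting lineage. In these libraries, each made from a population of cells, fewer lymphocytes and less RNA per lymphocyte cannot be told apart.

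Regulatory sequence is shown for 4 of the markers that moved together, 2 granzymes and 2 CD3 chains (RefSeq, GRCm38.p6, the assembly also called mm10). Each window holds the 250 bases before the start given in its entry, on the gene's own strand, which need not be the outermost start. The annotated Cd3e gene reaches to 45009663 and that of Cd3d begins at 44981769, so that the last bases of these 2 windows lie inside the gene. The windows of Ptprc and a window of Coro1a, not shown, lie wholly inside the gene. Of the 10 markers, 8 had an entry, with 10 windows in all. Capitals mark TGTGGT, the core letters bound by RUNX factors, and AGGAAG, letters bound by ETS factors, on either strand; both factor families act in T cells.
Gzma, chr13:113100982-113101231, minus strand: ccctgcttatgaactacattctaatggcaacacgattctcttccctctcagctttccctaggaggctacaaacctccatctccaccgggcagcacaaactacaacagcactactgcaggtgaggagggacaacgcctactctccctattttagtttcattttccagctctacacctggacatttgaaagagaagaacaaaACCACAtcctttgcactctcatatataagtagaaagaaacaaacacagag
Gzmb, chr14:56262335-56262584, minus strand: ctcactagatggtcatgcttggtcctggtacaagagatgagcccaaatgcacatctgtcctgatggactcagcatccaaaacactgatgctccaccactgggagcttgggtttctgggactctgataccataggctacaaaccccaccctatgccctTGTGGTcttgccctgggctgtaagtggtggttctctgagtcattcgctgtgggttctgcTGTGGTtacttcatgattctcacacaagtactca
Cd3d, chr9:44981536-44981785, plus strand: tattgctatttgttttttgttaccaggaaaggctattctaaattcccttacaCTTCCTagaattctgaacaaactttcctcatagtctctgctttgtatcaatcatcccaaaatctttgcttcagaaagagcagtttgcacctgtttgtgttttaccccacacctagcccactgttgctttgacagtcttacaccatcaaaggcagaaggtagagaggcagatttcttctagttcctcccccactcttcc
Cd3e, chr9:45009612-45009861, minus strand: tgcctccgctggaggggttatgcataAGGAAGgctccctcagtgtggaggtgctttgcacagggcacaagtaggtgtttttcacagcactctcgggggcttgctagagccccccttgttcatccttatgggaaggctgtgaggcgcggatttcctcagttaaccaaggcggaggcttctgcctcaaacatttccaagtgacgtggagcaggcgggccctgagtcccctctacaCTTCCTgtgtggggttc

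TGTGGT was found upstream of 2 of the 8 genes, Gzma and Gzmb (2 of the 10 windows), and in 14.0% of the 32851 promoter windows of that length. AGGAAG was found in windows of 4 of the 8 genes, in 5 of the 10 windows, against 29.5% of all windows. AGATAA, letters bound by GATA factors, was found in windows of 2 of the 8 genes (2 of the 10 windows, against 9.99% of all windows). The E-box CAGCTG was found in windows of 0 of the 8 (0 of the 10 windows, against 13.0% of all windows). These matches describe letters only. Each of the 4 windows shown holds a marked match. Cd3g and Cd8a, not shown, moved with the same 4 genes (r from 0.98 to 0.997) and hold neither TGTGGT nor AGGAAG. The 3 CD3 genes lie together on chromosome 9, where the starts used for the windows of Cd3d and Cd3g are 1355 bases apart and point away from each other.

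Total counts per library were between 7938358 and 20589683. Levels are given in CPM, counts per 1000000 counts of the tested genes, scaled with TMM factors, which even out differences in composition. Of all genes, 13935 had enough counts to be tested. Neurog3 checked the labels: it measured 563 and 348 CPM in EYFP, 119.5 and 179 CPM in EGFP, and 5.996 and 6.39 CPM in WT libraries. General epithelial markers such as Epcam, an adhesion molecule, were abundant in all 6 libraries (575 to 1612 CPM). Strain, reporter and Neurog3 allele number differ together between the sorted groups, and sex-linked transcripts differed with them. Xist, made from the inactive X of females, gave 0.634 and 2.36 CPM with EYFP, but 966 and 969 CPM with EGFP. Ddx3y, on the Y chromosome, gave 37.3 and 39.3 CPM with EYFP and 0 CPM in both EGFP libraries. In EYFP over EGFP the effects of these differences cannot be told apart. Strain and reporter also differ together between EYFP and WT, and reporter and Neurog3 allele number between EGFP and WT. Collection on the reporter goes with them, so that in the comparisons with WT these effects cannot be told apart either. Within WT, replicate 1 had 1.17 CPM of Xist and 62.4 CPM of Ddx3y, and replicate 2 had 726 and 0.121 CPM. The sex-linked transcripts of each sorted group thus matched only 1 of the 2 WT libraries. The summed lymphocyte markers of the 2 WT libraries were close, at 588 and 639 CPM. EYFP replicate 1 stood apart by macrophage transcripts, which are described with Ptprc and Coro1a. Values without it are also given for Ptprc in EYFP over WT, Coro1a in EYFP over EGFP, C1qa and the pan-leukocyte list.

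The lymphocyte markers were low in all 4 reporter-sorted libraries. Their summed level was 21.0 and 24.7 CPM in EYFP libraries, 15.2 and 39.9 CPM in EGFP libraries, and 588 and 639 CPM in WT libraries. The group means were 22.8 ± 2.58 CPM in EYFP, 27.6 ± 17.5 CPM in EGFP and 613 ± 36.2 CPM in WT (SD, n = 2 each), so that the sorted groups held 3.72% and 4.49% of the WT level. The sums rest on 298 and 293 counts in EYFP, 126 and 472 in EGFP, and 7056 and 10593 in WT. The EGFP libraries differed from each other beyond counting error, with exact 95% Poisson intervals of 12.7 to 18.1 CPM for replicate 1 and 36.4 to 43.7 CPM for replicate 2. No test across 2 against 2 libraries of a single value can reach an exact two-sided permutation p below 0.33, so the sums are given as levels. The log2 ratio of the group means was -4.75 for EYFP over WT, -4.48 for EGFP over WT (-3.84 and -5.33 without EGFP replicates 1 and 2) and -0.27 for EYFP over EGFP (-0.75 and 0.58 without the same libraries).

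**Figure D1:**
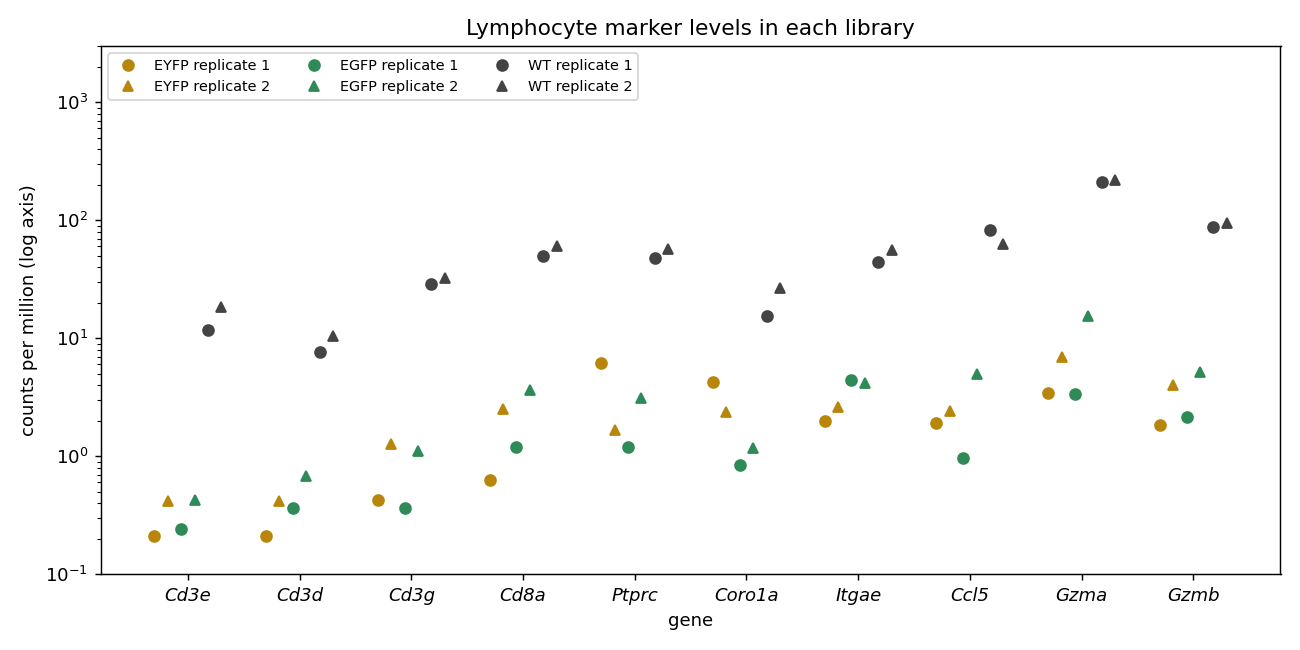
Level of each lymphocyte marker in each library, in CPM on a log axis; colour gives the group, circles replicate 1 and triangles replicate 2. For all 10 genes both WT libraries lie above the 4 sorted libraries, from 7.66 CPM (Cd3d) to 219.6 CPM (Gzma) in WT.

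Cd3e and Cd3d passed the filter on low counts only through the WT group, so that they could hardly fail to differ from WT, and their levels against WT are given below without a test. The other 8 would also have passed on the 4 sorted libraries alone. In EYFP cells against WT, 8 of these 8 were lower at an adjusted p under 0.05 (edgeR's quasi-likelihood test, Benjamini-Hochberg over all genes tested), where 33.5% of all tested genes were called lower, 27.1% higher and 60.6% in either direction. In EGFP cells against WT, 8 of 8 were lower as well, where 21.9% of tested genes were lower, 19.6% higher and 41.5% in either direction. The EYFP and EGFP comparisons share the WT libraries. The median log2 fold change of the 8 was -5.02 in EYFP over WT, beside -0.12 over all tested genes, and -4.50 in EGFP over WT, beside 0.00315. For each of the 8, both libraries of a sorted group lay below both WT libraries, as they did for 45% of all tested genes in EYFP and 36.2% in EGFP. The authors' deposited table, made from the same libraries, gives folds with WT on top. For the 8 they ran from 5.82 (Coro1a) to 37.98 (Gzma) for WT over EYFP and from 11.5 (Itgae) to 38.15 (Cd3g) for WT over EGFP. All 8 had an adjusted p under 0.05 there in each, and the share called over all genes of that table was not computed.

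Of the CD3 chains few counts were left in the sorted cells. Cd3e, the CD3 epsilon chain of the T cell receptor complex, stood at 0.211 and 0.421 CPM in EYFP libraries, 0.241 and 0.423 CPM in EGFP libraries, and 11.7 and 18.4 CPM in WT libraries. These levels in the sorted cells rest on 3, 5, 2 and 5 counts, and both WT libraries were above all of them. Cd3e shares 135 exon bases with Gm48719 on the opposite strand, and since no source used here gives the strand setting of the counting, reads of the pair cannot be told apart. Cd3g, the gamma chain, stood at 0.423 and 1.262 CPM in EYFP, 0.362 and 1.10 CPM in EGFP, and 28.6 and 32.1 CPM in WT. Both chains were thus lowest in replicate 1 of each sorted group. The log2 fold changes of Cd3g were -5.20 ± 0.49 (SE) in EYFP over WT and -5.27 ± 0.51 in EGFP over WT, and values without 1 library ran from -6.14 (without EYFP replicate 2) to -4.58 (without EYFP replicate 1) and from -6.35 (without EGFP replicate 2) to -4.67 (without EGFP replicate 1). Cd3d, the delta chain, stood at 0.211 and 0.421 CPM in EYFP, 0.362 and 0.676 CPM in EGFP, and 7.66 and 10.4 CPM in WT.

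Cd8a encodes the CD8 alpha chain, a co-receptor that as an alpha homodimer is typical of gut intraepithelial lymphocytes. It stood at 0.634 and 2.52 CPM in EYFP, 1.21 and 3.64 CPM in EGFP, and 50.2 and 60.5 CPM in WT. Replicate 2 of each sorted group was the higher one, and no sorted library came near WT. The log2 fold change of Cd8a was -5.17 ± 0.64 in EYFP over WT (adjusted p = 0.000757; -4.45 and -6.43 without EYFP replicates 1 and 2) and -4.45 ± 0.61 in EGFP over WT (adjusted p = 0.00209; -3.82 and -5.51 without EGFP replicates 1 and 2).

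Effector genes led the markers in WT per length of transcript. Gzma, granzyme A, stood at 3.45 and 6.90 CPM in EYFP, 3.38 and 15.5 CPM in EGFP, and 212 and 219.6 CPM in WT. EGFP replicate 2 was the highest sorted library, and still held 7.16% of the WT mean. Its log2 fold change was -5.40 ± 0.75 in EYFP over WT (adjusted p = 0.00243) and -4.47 ± 0.71 in EGFP over WT (adjusted p = 0.0065; -3.70 and -5.99 without EGFP replicates 1 and 2). Gzmb, granzyme B, stood at 1.83 and 4.04 CPM in EYFP, 2.17 and 5.16 CPM in EGFP, and 87.2 and 95.2 CPM in WT. The log2 fold changes of Gzmb were -4.98 ± 0.45 in EYFP over WT (-5.63 without EYFP replicate 2) and -4.59 ± 0.45 in EGFP over WT (-5.39 without EGFP replicate 2). Ccl5, a chemokine that attracts T cells and is stored by memory and effector CD8 cells, stood at 1.90 and 2.44 CPM in EYFP, 0.965 and 4.99 CPM in EGFP, and 82.1 and 63.2 CPM in WT. It was the only one of the 10 that was lower in WT replicate 2 than in WT replicate 1. Its log2 fold changes were -5.07 ± 0.59 in EYFP over WT and -4.52 ± 0.57 in EGFP over WT (-3.77 and -6.22 without EGFP replicates 1 and 2).

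Itgae, on chromosome 11 from 73090505 to 73147449 (GRCm38), encodes the alpha chain of the integrin CD103. It stood at 1.97 and 2.61 CPM in EYFP, 4.46 and 4.14 CPM in EGFP, and 44.6 and 56.0 CPM in WT. Both EYFP libraries lay below both EGFP libraries. Its falls against WT had the smallest errors of the 10, with log2 fold changes of -4.46 ± 0.25 in EYFP (adjusted p = 8.11e-06) and -3.55 ± 0.23 in EGFP (adjusted p = 4.1e-05). In EGFP cells its fall was the smallest of the 10, 11.7-fold. Itgae took 29.4% of the summed counts of the 10 markers in EGFP replicate 1 (exact 95% binomial interval 21.6% to 38.1%), 10.4% in EGFP replicate 2 (7.78% to 13.5%), and 7.58% and 8.77% in the WT libraries. Its share in EYFP libraries was 9.40% and 10.6%.

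Ptprc and Coro1a mark leukocytes more broadly. Ptprc encodes CD45, a phosphatase on the surface of nearly all leukocytes. It stood at 6.13 and 1.68 CPM in EYFP, 1.21 and 3.13 CPM in EGFP, and 47.6 and 56.5 CPM in WT. EYFP replicate 1 was the highest of the sorted libraries. The log2 fold change of Ptprc was -3.71 ± 0.60 in EYFP over WT (adjusted p = 0.00234; -4.94 and -3.09 without EYFP replicates 1 and 2) and -4.52 ± 0.65 in EGFP over WT (adjusted p = 0.00243; -5.42 without EGFP replicate 2). Coro1a, on chromosome 7 from 126699774 to 126704816 (GRCm38), encodes an actin-binding protein that T cells need to survive and migrate. It stood at 4.23 and 2.36 CPM in EYFP, 0.844 and 1.18 CPM in EGFP, and 15.6 and 26.8 CPM in WT. Both EYFP libraries were above both EGFP libraries and below both WT libraries. Its fall in EYFP was the smallest of the 10, 6.39-fold (log2 fold change -2.68 ± 0.39, adjusted p = 0.000645), against 20.4-fold in EGFP (-4.35 ± 0.46, adjusted p = 0.000259). Leaving out 1 library at a time, the log2 fold change in EYFP over WT ran from -3.17 to -2.23. Coro1a shares 26 exon bases with Bola2 on the opposite strand, so that its reads there cannot be told apart either.

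**Figure D2:**
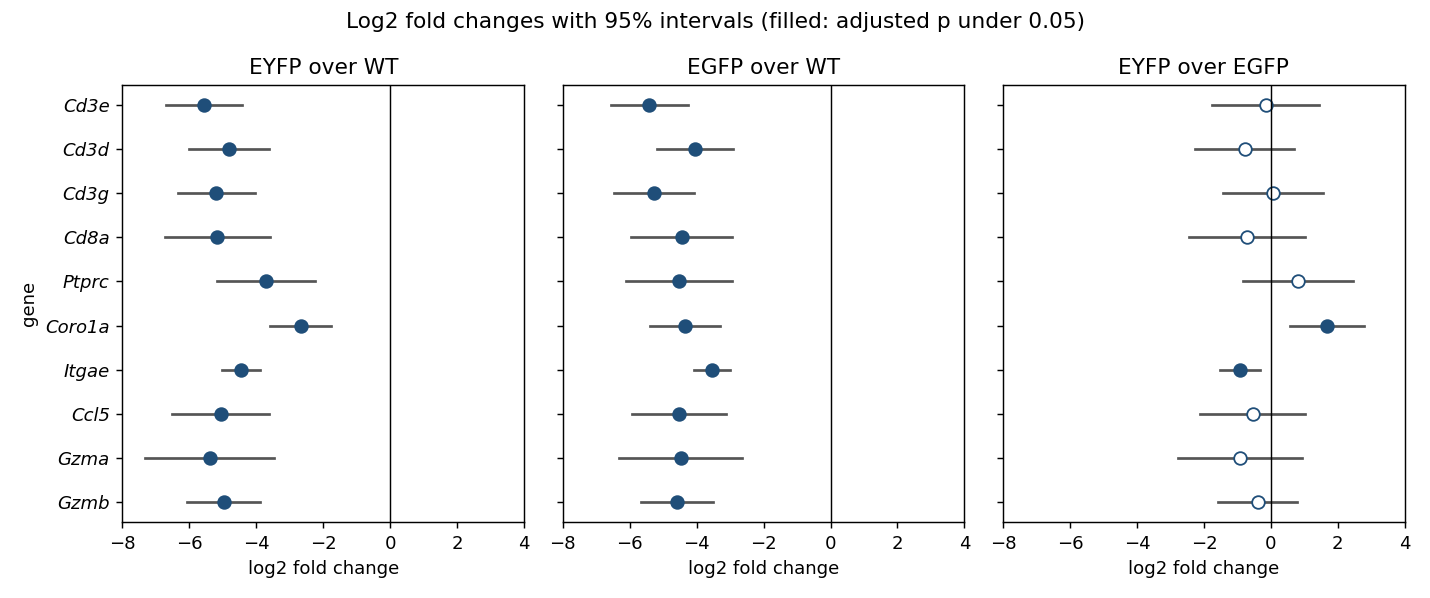
Log2 fold change of each marker with its 95% interval (x axis) in the 3 comparisons; filled points have an edgeR adjusted p under 0.05. In both comparisons with WT the intervals lie below 0, for Cd3e and Cd3d in genes that passed the low-count filter only through WT, and between EYFP and EGFP only Coro1a (1.67) and Itgae (-0.91) are filled.

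Between the sorted groups few of the markers differed past the test. Of the 10, 1 was higher in EYFP than in EGFP (Coro1a), 1 was lower (Itgae) and 8 did not pass, where 16.8% of all tested genes were higher and 19.4% lower; 2 of 10 is below the 36.2% called in either direction. The EYFP and EGFP libraries lay apart for the same 2 of the 10, and for 74.3% of all tested genes. The median of the 10 was -0.47, beside 0.00839 over all tested genes. Coro1a had a log2 fold change of 1.67 ± 0.48 (adjusted p = 0.0284), and 1.18, 1.53 and 1.96 with adjusted p of 0.153, 0.127 and 0.0875 without EYFP replicate 1, EGFP replicate 1 and EGFP replicate 2. Itgae had -0.91 ± 0.26 (adjusted p = 0.0275), and its adjusted p was 0.149, 0.132 and 0.076 without the same 3 libraries. The authors' deposited table gives Coro1a a fold of 3.2 for EYFP over EGFP with an adjusted p of 0.0787, Itgae a fold of 0.528 with 0.218, and 0 of the 10 an adjusted p under 0.05. For the 8 others the 95% intervals were wide: Cd3e -0.15 (-1.75 to 1.44), Cd3d -0.78 (-2.26 to 0.70), Cd3g 0.07 (-1.43 to 1.57) and Cd8a -0.72 (-2.45 to 1.01). Gzma had -0.92 (-2.78 to 0.93), Gzmb -0.39 (-1.57 to 0.78), Ccl5 -0.54 (-2.10 to 1.01) and Ptprc 0.81 (-0.83 to 2.45). All 8 intervals span 0 and reach past 1 on the log2 scale on at least 1 side. Leaving out 1 library at a time turned the sign of 7 of the 8. The values then ran from -0.69 to 0.34 for Cd3e, -0.87 to 1.15 for Cd3g, -1.98 to 0.34 for Cd8a, -1.05 to 0.41 for Gzmb, -1.15 to 1.15 for Ccl5 and -0.42 to 1.71 for Ptprc, and from -1.31 to -0.22 for Cd3d, whose sign did not turn. Gzma was at -1.54 (adjusted p = 0.0451) without EGFP replicate 1 and at 0.59 (adjusted p = 0.389) without EGFP replicate 2, so that its direction rests on single libraries.

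Gsg2, the mitotic kinase gene also called Haspin, lies within Itgae on the opposite strand, on chromosome 11 from 73135485 to 73138294 (GENCODE M21, GRCm38), and shares 0 exon bases with it. Gsg2 stood at 3.38 and 3.03 CPM in EYFP, 14.4 and 11.1 CPM in EGFP, and 18.6 and 21.9 CPM in WT. It was lower in EYFP than in EGFP (log2 fold change -1.98 ± 0.25, adjusted p = 0.00117), in the same direction as Itgae; its part in the Itgae difference was not tested. The Itgae row joins 2 transcripts, of which 1 had a length in the annotation.

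**Figure D3:**
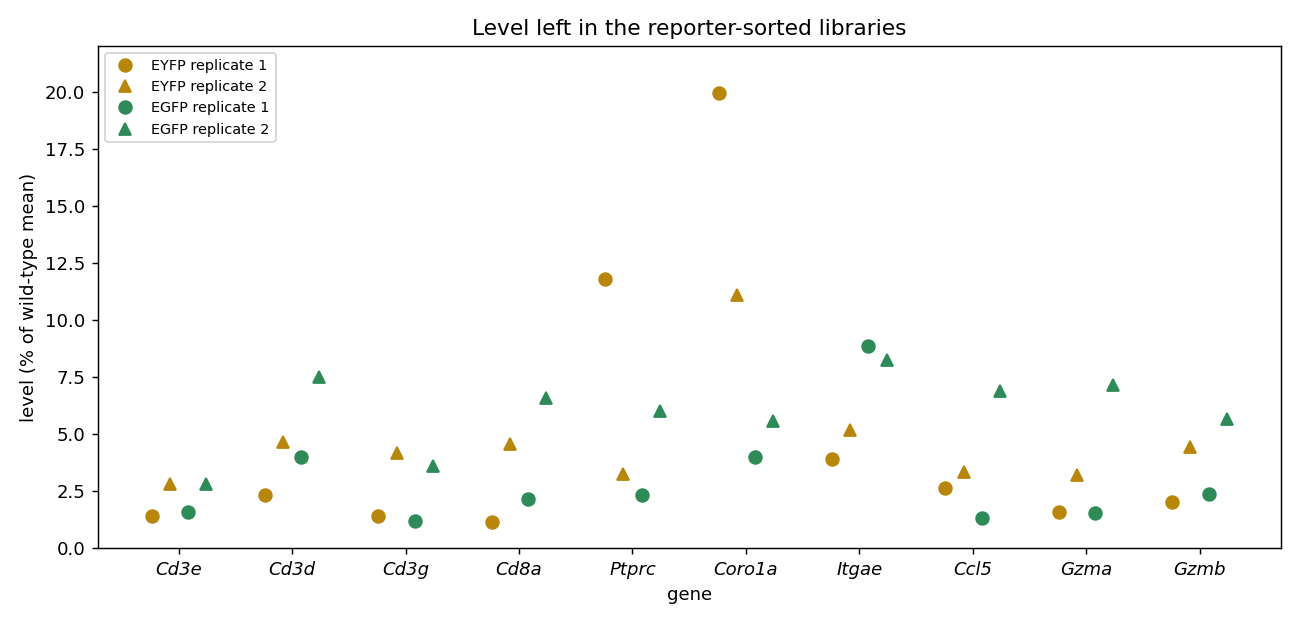
Level of each marker in each of the 4 sorted libraries as a percentage of the mean of the 2 WT libraries (y axis from 0). Coro1a in the EYFP libraries (19.9% and 11.1%) and Ptprc in EYFP replicate 1 (11.8%) lie highest, and all other points are at or under 8.87%.

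The makeup of the marker signal differed between libraries. The CD3 chains together were at 0.846 and 2.10 CPM in EYFP, 0.965 and 2.20 CPM in EGFP, and 48.0 and 60.9 CPM in WT, so that replicate 1 of each sorted group kept 1.55% and 1.77% of the WT mean and replicate 2 kept 3.86% and 4.04%. They rest on 12, 25, 8 and 26 counts in the sorted libraries. Ptprc was 7.25 times the CD3 sum in EYFP replicate 1 and 0.80 times in EYFP replicate 2, 1.25 and 1.42 times in EGFP, and 0.991 and 0.928 times in WT. Coro1a was 5.0 and 1.12 times the CD3 sum in EYFP, 0.875 and 0.538 times in EGFP, and 0.325 and 0.441 times in WT. EYFP replicate 1 thus stood apart from the 5 other libraries in both ratios. Gzmb, in contrast, kept close ratios to the CD3 sum, 2.17 and 1.92 in EYFP, 2.25 and 2.35 in EGFP, and 1.82 and 1.56 in WT. Ptprc made up 29.2% of the marker counts in EYFP replicate 1 (exact 95% binomial interval 24.1% to 34.7%), 6.83% in EYFP replicate 2 (4.22% to 10.4%) and 8.09% and 8.85% in WT.

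Macrophage transcripts moved with Ptprc in that library. The 17 myeloid markers with a row summed to 328 and 26.7 CPM in EYFP, 31.0 and 73.7 CPM in EGFP, and 51.8 and 48.9 CPM in WT libraries. Lyz2, the lysozyme of macrophages, stood at 207 and 0.168 CPM in EYFP, 0.482 and 29.3 CPM in EGFP, and 2.58 and 2.65 CPM in WT, and is uncertain because Lyz1 is a near-identical copy. Csf1r, the receptor for the macrophage growth factor, stood at 19.3 and 0 CPM in EYFP, 0 and 3.30 CPM in EGFP, and 0.666 and 1.75 CPM in WT. The highest sorted value of both genes was in EYFP replicate 1 and the next in EGFP replicate 2. The complement gene C1qb followed the same order, at 13.9 and 0 CPM in EYFP, 0 and 2.11 CPM in EGFP, and 0.583 and 1.08 CPM in WT. Of 10 myeloid markers tested, 1 was higher in EYFP than in EGFP (C1qa, a complement gene, 32.9 and 15.1 CPM with EYFP, 4.10 and 6.76 CPM with EGFP). Itgam and Cd14 were the 2 lower, and 7 did not pass, where 16.8% of all tested genes were higher and 19.4% lower. The call of C1qa was lost without EYFP replicate 1 or EGFP replicate 1 (adjusted p = 0.058 and 0.0645), and that of Cd14 without 3 of the 6 libraries (0.0701 to 0.0755). Against WT, C1qa was the 1 higher and Itgam the 1 lower in each sorted group, and in EGFP C1qa lost its call without EGFP replicate 2 or either WT library (adjusted p from 0.0599 to 0.105) and Itgam without either EGFP library or WT replicate 1 (0.0812 to 0.13). C1qa in EYFP over WT was at 4.16 on the log2 scale, or 3.50 (adjusted p = 0.00106) with EYFP replicate 1 left out. Of the 17, at 0 were 2 and 6 in EYFP, 8 and 5 in EGFP, and 1 and 2 in WT libraries. Cd4, which marks helper T cells and is also carried by some macrophages, was at 9.16 and 0.168 CPM in EYFP, 0 and 0.507 CPM in EGFP, and 3.83 and 0.663 CPM in WT. The part of macrophages in the levels of Ptprc and Coro1a was not tested; without EYFP replicate 1, Coro1a in EYFP over EGFP was 1.18 (adjusted p = 0.153) and Ptprc in EYFP over WT was -4.94.

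**Figure D4:**
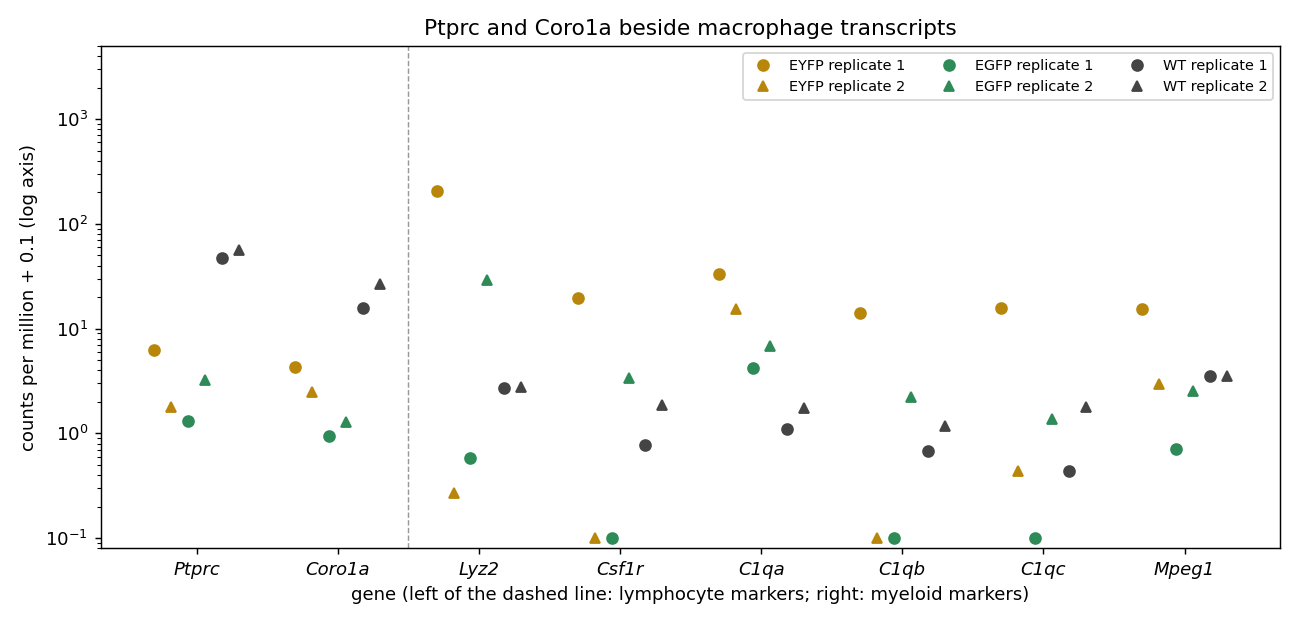
CPM plus 0.1 (log axis) of Ptprc and Coro1a and of a chosen 6 of the 17 myeloid markers with a row, in each library. Itgam and Cd14, not shown, were lower in EYFP than in EGFP (log2 fold changes -2.38 and -2.13). EYFP replicate 1 is the highest library for the 6 myeloid markers shown (Lyz2 207 CPM) and the highest sorted library for Ptprc (6.13 CPM) and Coro1a (4.23 CPM).

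Per length of transcript, the order of levels in WT was Gzma (246 ± 5.74 CPM per kb, SD, n = 2), Ccl5 (137 ± 25.1), Gzmb (63.5 ± 3.95), Cd3g (29.7 ± 2.47), Cd8a (18.2 ± 2.39), Itgae (13.1 ± 2.11), Coro1a (12.5 ± 4.68), Ptprc (10.9 ± 1.32), Cd3e (10.3 ± 3.22) and Cd3d (5.58 ± 1.19). Neighbours from Itgae down to Cd3e overlapped between libraries and the others were apart. Gzma, Ccl5 and Gzmb also led in EYFP (5.89 ± 2.77, 4.08 ± 0.713 and 2.04 ± 1.09 CPM per kb) and in EGFP (10.7 ± 9.74, 5.60 ± 5.35 and 2.55 ± 1.47). Coro1a came next in EYFP, at 1.93 ± 0.777 CPM per kb, overlapping Gzmb and apart from Cd3g below it. In EGFP it stood at 0.595 ± 0.141 CPM per kb, overlapping Cd3g and Ptprc.

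Most other T cell genes tested were low in the same libraries. Of 13 tested genes of T cell receptor signalling, 10 were lower and 0 higher than in WT in EYFP, and likewise in EGFP. Over all tested genes, 33.5% were lower in EYFP and 21.9% in EGFP. Between EYFP and EGFP 0 passed in edgeR's test (1 at an unadjusted p under 0.05). Genes with almost no counts in either sorted group, such as Thy1 and Skap1 (3 counts in EYFP, 1 in EGFP), passed the low-count filter only through WT. They could hardly fail to be lower, and the counts against WT here and for the lists below include such genes. Thy1, a T cell surface protein, had 0 counts in all 4 sorted libraries and 81 in WT. With a floor of 3 counts over the group, it was at least 24.6-fold lower in EYFP and at least 19.0-fold lower in EGFP. Zap70, the kinase that docks on phosphorylated CD3 chains, stood at 0.423 and 0.337 CPM in EYFP, 0.241 and 0.338 CPM in EGFP, and 10.3 and 12.3 CPM in WT. The list median was -3.91 in EYFP over WT and -4.36 in EGFP over WT (-4.25 with Thy1 at its bound). The 3 that did not pass against WT were Cd247, Cd8b1 and Cd4. As shares of the WT mean, Cd247 was at 31.4% in EYFP and 14.6% in EGFP, Cd8b1 at 25.4% and 1.70%, and Cd4 at 208% and 11.3%. Of 16 cytotoxic and natural killer genes tested, 14 were lower and 0 higher than in WT in EYFP, and likewise 14 and 0 in EGFP. These include Prf1, Klre1, Xcl1 and Tbx21, which held 0 or 1 counts in each sorted group and passed the filter only through WT. Prf1, perforin, had 0 counts in the 4 sorted libraries and 48 in WT, at least 14.6-fold lower in EYFP and at least 11.3-fold lower in EGFP. Tbx21, the transcription factor T-bet, had 0 counts in EYFP and was at least 34.7-fold lower there than in WT, a bound that is 19.9-fold without WT replicate 1 and 55.0-fold without WT replicate 2. The chemokine gene Xcl1 had 0 counts in EGFP and was at least 29.6-fold lower, or at least 39.2-fold and 16.2-fold without WT replicates 1 and 2. Only Cd244, a receptor of cytotoxic lymphocytes, differed between the sorted groups in this list, at 0.141 and 0.757 CPM in EYFP, 3.50 and 3.55 CPM in EGFP, and 9.33 and 13.9 CPM in WT (EYFP over EGFP -3.01 ± 0.60, adjusted p = 0.00757; -2.20 and -4.56 without EYFP replicates 1 and 2).

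Pan-leukocyte genes fell less evenly. Of 20 tested, 14 were lower in EYFP and 16 in EGFP than in WT, with 0 higher in either. Over all tested genes 33.5% were lower in EYFP and 21.9% in EGFP. Between EYFP and EGFP, 3 of the 20 were higher and 2 lower, beside 16.8% higher and 19.4% lower over all tested genes. Their median log2 fold change was -2.46 in EYFP and -3.82 in EGFP, over WT. Without EYFP replicate 1 the median in EYFP was -3.56, with 16 of 20 lower, and it was -1.73, with 12 lower, without EYFP replicate 2. Laptm5, a lysosomal protein of blood cells, stood at 8.74 and 8.08 CPM in EYFP, 2.29 and 3.81 CPM in EGFP, and 23.98 and 28.9 CPM in WT. It was among the 3 higher in EYFP than in EGFP, with Was and Itgal, while Lcp1 and Vav1 were lower; Itgal, Lcp1 and Vav1 each lost the call without 3 of the 6 libraries (adjusted p from 0.0558 to 0.148). Without EYFP replicate 1, 2 of the 20 were higher and 0 lower. Was, an actin regulator of leukocytes, stood at 2.75 and 0.757 CPM in EYFP and 0.241 and 0 CPM in EGFP, and its call was lost without EYFP replicate 1, EGFP replicate 1 or EGFP replicate 2 (adjusted p = 0.145, 0.0501 and 0.137). Ptpn6, a phosphatase, was at 33.9 to 56.4 CPM in all 6 libraries and passed in no comparison. Of 9 homing and residency genes tested, 8 were lower in EYFP and 9 in EGFP than in WT. In EGFP over WT the call of Itgb7 was lost without 5 of the 6 libraries (log2 fold change -1.27, and from -2.10 to -0.68 in those fits). That of Cxcr6 was lost without 3, and those of Itga1 and Cd101 without 2 each. Between EYFP and EGFP Itgb7 was higher and Itga1 lower, a call of Itga1 that was lost without 3 of the 6 libraries (-0.92, and from -1.05 to -0.73 in those fits). Cd69, which keeps lymphocytes in tissue, held 2 counts in each sorted group and 188 in WT, a level 85.7-fold lower in EYFP (95% counting interval 23.4 to 713) and 66.1-fold lower in EGFP (18.1 to 550). Itgb7, whose product pairs with that of Itgae, stood at 14.9 and 18.8 CPM in EYFP, 3.86 and 9.64 CPM in EGFP, and 14.3 and 18.8 CPM in WT. Unlike Itgae, it was higher in EYFP than in EGFP (1.29 ± 0.40, adjusted p = 0.0418; 2.11 without EGFP replicate 2), a call lost without any 1 of the 5 other libraries (adjusted p from 0.0597 to 0.161).

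B cell markers were sparse, and mast cell markers differed in direction. Of 3 B and plasma cell genes tested, Cd22 was higher in EYFP than in WT, a call lost without 4 of the 6 libraries (adjusted p from 0.0522 to 0.163). Igj, the joining chain of antibodies, was lower in both sorted groups (0.0705 and 1.262 CPM in EYFP, 0.241 and 0.676 CPM in EGFP, 6.995 and 5.005 CPM in WT), and its call over WT was lost without WT replicate 1 in EYFP (adjusted p = 0.069) and without any 1 EGFP or WT library in EGFP (0.0547 to 0.13). Its log2 fold change in EYFP over WT was -3.21, and -2.23 and -6.22 without EYFP replicates 1 and 2; in EGFP over WT it was -3.60, and -4.58 without EGFP replicate 2. Mcpt1, a mucosal mast cell protease, stood at 0.0705 and 0.168 CPM in EYFP, 0.121 and 0.846 CPM in EGFP, and 8.66 and 16.5 CPM in WT. Of 4 mast cell genes tested, Mcpt1 and Mcpt2 were lower in both sorted groups, where 33.5% of all tested genes were lower in EYFP and 21.9% in EGFP. They held 3 counts each in EYFP and 11 and 6 in EGFP, against 378 and 166 in WT, so that they could hardly fail to be lower. Kit, a receptor that other gut cells also carry, was higher in both (107 and 87.2 CPM in EYFP, 128 and 142 CPM in EGFP, 17.7 and 26.8 CPM in WT). Hdc was higher in EYFP than in WT and than in EGFP. Hdc lost the last call without EYFP replicate 1, EYFP replicate 2 or EGFP replicate 1 (adjusted p = 0.0673, 0.0755 and 0.103). Of 6 genes of stroma, endothelium and muscle, 3 were higher in EYFP than in WT and 1 in EGFP than in WT (Pecam1), with 0 lower. In EYFP over EGFP 2 were higher (Pecam1 and Myh11) and 0 lower. The shares higher over all tested genes were 27.1%, 19.6% and 16.8% in these comparisons. Pecam1 in EGFP over WT (1.06, adjusted p = 0.0375) lost its call without any 1 library except WT replicate 2 (0.0539 to 0.157), and Myh11 in EYFP over EGFP (2.23, adjusted p = 0.0348) lost its call without any 1 of the 6 (0.0635 to 0.237; 2.84 without EGFP replicate 1).

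Epithelial genes that lymphocytes depend on were also measured. Of 13 such genes, 9 were lower and 0 higher in EYFP than in WT, and 7 lower and 0 higher in EGFP than in WT. Between the sorted groups, 4 were lower and 0 higher in EYFP than in EGFP. Over all tested genes the shares lower in these comparisons were 33.5%, 21.9% and 19.4%. Cdh1, E-cadherin, the ligand of the Itgae integrin, stood at 742 and 725 CPM in EYFP, 983 and 977 CPM in EGFP, and 968 and 945 CPM in WT, and passed in no comparison. Ccl25, the chemokine that draws lymphocytes to the small intestine, stood at 33.8 and 41.6 CPM in EYFP, 87.4 and 93.3 CPM in EGFP, and 642 and 768 CPM in WT. Its receptor gene Ccr9 was at 0.987 and 1.77 CPM in EYFP, 0.603 and 0.930 CPM in EGFP, and 7.08 and 8.50 CPM in WT. Il15, a cytokine that sustains intraepithelial lymphocytes, was at 0.705 and 0.841 CPM in EYFP, 2.29 and 1.52 CPM in EGFP, and 14.6 and 23.4 CPM in WT. Btnl1 and Btnl6 encode butyrophilin-like proteins that select gamma-delta lymphocytes in the mouse gut. Btnl6 had the largest fall of the list, to 9.87 and 14.4 CPM in EYFP and 10.1 and 12.8 CPM in EGFP, against 250 and 399 CPM in WT (log2 fold changes -4.75 and -4.82). Btnl4 differed most between the sorted groups, with 13.6 and 26.1 CPM for EYFP, and 62.7 and 83.3 CPM for EGFP (-1.89, adjusted p = 0.00785).

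Markers of the epithelial cell types give the scale of these changes. The 12 enterocyte genes summed to 1473 and 2442 CPM in EYFP, 1547 and 2032 CPM in EGFP, and 34660 and 58650 CPM in WT, and all 12 were lower in both sorted groups. Between EYFP and EGFP, Fabp2, a fatty acid carrier, was the 1 of 12 that passed, lower in EYFP, and its call was lost without EYFP replicate 1, EGFP replicate 1 or EGFP replicate 2 (adjusted p = 0.0953, 0.0772 and 0.0905). As shares of the WT mean they were at 3.16% and 5.23% in EYFP and 3.32% and 4.36% in EGFP, beside 3.43% and 4.02%, and 2.48% and 6.51%, for the lymphocyte markers. The 12 enteroendocrine genes went the other way, at 61150 and 46340 CPM in EYFP, 9210 and 13800 CPM in EGFP, and 521 and 592 CPM in WT, with all 12 higher in both sorted groups and 11 higher in EYFP than in EGFP. Of 8 general epithelial genes, 5 were lower and 1 higher in EYFP than in WT, and 3 lower and 1 higher in EGFP than in WT. Between the sorted groups, 3 were lower in EYFP than in EGFP. The shares lower over all tested genes were 33.5%, 21.9% and 19.4% in these comparisons.

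**Figure D5:**
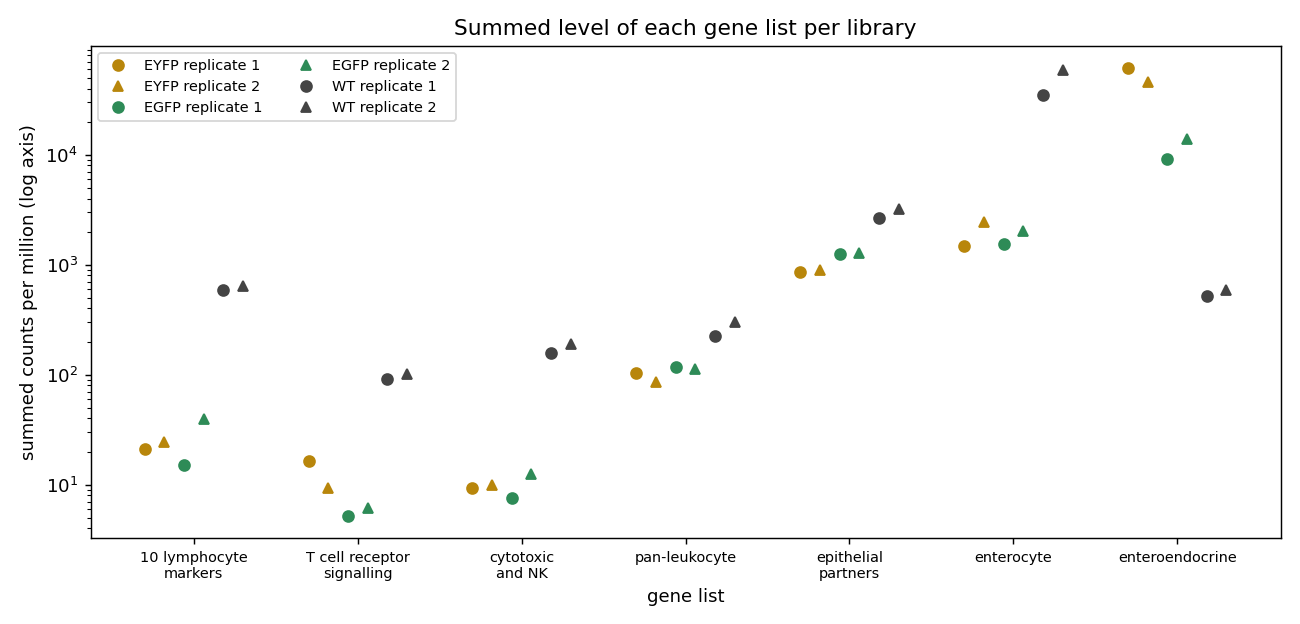
Summed CPM (log axis) of 7 gene lists in each library. The lymphocyte, T cell receptor, cytotoxic and enterocyte lists are highest in the WT libraries, and the enteroendocrine list is highest in the EYFP libraries.

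The genes whose pattern over the 6 libraries was most like the mean of the 10 markers were Glod5, Cd7, Smlr1, Pbld2, Casp6, Slc30a10, Ubap1 and Slc35f5, with Pearson r from 0.997 to 0.999 on the scale of log2(CPM + 0.1) among 12513 genes with a mean of at least 1 CPM. Of these genes, 915 had an r over 0.95, so that with 6 libraries in which WT stands apart from the sorted ones such values are common. Cd7, a surface protein of T and natural killer cells, was the only one of the 8 on the lists of immune genes, at 1.27 and 2.52 CPM in EYFP, 1.21 and 3.04 CPM in EGFP, and 57.9 and 70.1 CPM in WT. Closest to Cd3e were Arhgap17, Rdh7 and Clic5, closest to Itgae were Dhrs3, Dak and Atl2, and closest to Coro1a were Bcar3, Gna13 and Lipa (r from 0.9954 to 0.9998). Among the 10 markers, r was from 0.956 to 0.997 between the 3 CD3 chains, Cd8a, Gzma, Gzmb and Itgae, and Coro1a had its highest r with Ptprc (0.958).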

How the data were processed

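RNA was measured in 6 libraries, 2 per group. Per the labels' protocols, RNA was isolated by RNeasy Micro columns, made into TruSeq libraries and sequenced from 1 end for 50 bases (HiSeq2000). The submitters' processing notes list RSEM 1.3.1, Bowtie2, DESeq2 1.26.0 and mm10, with settings not stated. The authors deposited estimated counts per gene, in which reads that match several genes are divided. A second table by the authors, of comparisons, has a signal for each library (whole part of the count over a size factor), a linear fold of the second-named group over the first, and an adjusted p-value; only folds and adjusted p were used. Columns of the EYFP libraries carry the word addon and were matched through it.

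Estimated counts were rounded. Genes were filtered with edgeR's filterByExpr (58.4% kept), scaled with TMM and tested with edgeR 4.0.16's quasi-likelihood F test (robust) in 1 model of 3 group means, leaving 3 residual degrees of freedom; p-values were adjusted by Benjamini-Hochberg and called at 0.05. The common dispersion in edgeR corresponded to a coefficient of variation of 19.8% between libraries of a group. The SE is the log2 fold change over the root of F, and 95% intervals use the moderated degrees of freedom. For a group at 0 a floor of 3 counts in the whole group was used, and for groups with 1 to 3 counts an exact interval; intervals and floors cover counting error only. CPM per kb uses the mean GENCODE M21 length of the row's transcripts. The fit was tested on simulated data. The 10 markers, the 12 context lists (164 of 166 symbols had a row), the tests and the alternatives were chosen with earlier results of these data known. Genes named from context lists were taken, by rule, from those with the largest change past the test per list and comparison, and genes alike in pattern by their correlation; others, such as Epcam, Xist, Cd14, Itgal, Lcp1, Vav1, Itga1, Cd22, Mcpt2, Zap70, Prf1, Laptm5, Ptpn6, Lyz2, Csf1r, C1qb, Cd4, Ccr9, Kit and Gsg2, and the epithelial partners except Btnl6 and Btnl4, were chosen after their values were seen. Alternatives were DESeq2 size factors, TMM without the 50 most abundant genes, library totals without TMM, no filter, at least 10 counts in both libraries of a group, DESeq2 1.42.0's Wald test, a fit to the 4 libraries of a comparison, a block for the replicate number, and leaving out each library. Leaving out each library for the context lists and each WT library for the bounds was chosen after seeing the data.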

Additional observations from a re-analysis of the deposited data

How the results depend on the processing

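Against WT, the 8 markers that passed the filter on the sorted libraries alone were called lower in EYFP and in EGFP under every alternative run for genes that kept all libraries. Many genes were: 33.5% of all tested genes in EYFP and 21.9% in EGFP in the main fit. With DESeq2 size factors, 4183 and 2885 of 13935 were called lower. Cd3e and Cd3d, tested only through WT, were lower as well. Over all alternatives, the log2 fold changes of single markers ran from -6.43 to -2.23 in EYFP and from -6.35 to -3.37 in EGFP. The summed level in EYFP over WT moved to -4.29 with library totals without TMM. DESeq2 size factors shifted the median of all genes in EYFP over WT by 0.115 on the log2 scale. Between EYFP and EGFP, the count of lower markers was 0 in the DESeq2 Wald test (Itgae, adjusted p = 0.0502) and 0 in a fit to only the 4 libraries compared (Itgae, adjusted p = 0.0909; Cd3e and Cd3d did not pass the filter there). Leaving out 1 library at a time, the counts were 0 to 1 higher and 0 to 1 lower between EYFP and EGFP; the cause was not tested. The summed level then ran from -4.87 to -4.59 in EYFP over WT, from -5.33 to -3.84 in EGFP over WT, and from -0.75 to 0.58 in EYFP over EGFP, where its sign turned without EGFP replicate 2. Same-numbered libraries showed little shared deviation (r of 0.0143, 0.0964 and 0.0224 in the 3 comparisons), and the main fit had no pairing. These values cannot exclude that libraries of the same number share a batch. With the replicate block the counts were 10 lower against WT in both groups, Cd3e and Cd3d among them, and 1 higher and 1 lower between EYFP and EGFP. The shares called over all genes in that fit are not given here. Of the genes named from other lists, Scg2, Myh11, Pecam1 and Itgb7 lost their call under at least 1 alternative that kept all libraries of the comparison. Of the context-list calls, 12 of 96 in EYFP over WT, 23 of 91 in EGFP over WT and 16 of 33 in EYFP over EGFP were lost without at least 1 library. The CD3 chains had 2 to 15 counts each in a sorted library.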
